A study of Lactuca sativa with 32 samples.

Results

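Leaves of red oak leaf lettuce (Lactuca sativa) that grew behind a PTB7-Th:IEICO-4F filter were compared with leaves behind clear glass in the height controlled (HC) experiment. The filter plants are the 4 titled HC-PTB7-Th:IEICO-4F, and they were set against the 4 titled HC-Control, so the comparison uses 8 of the 32 plants of the series. PTB7-Th:IEICO-4F is the light-absorbing blend of an organic photovoltaic (OPV) filter, in which PTB7-Th is a donor polymer and IEICO-4F a non-fullerene acceptor that takes up near-infrared light. Ceramic metal halide and incandescent lamps lit all plants, and light intensity in HC was left as the cover passed it, without adjustment. In the PAR controlled (PC) experiment of the same series, intensity was adjusted, and both experiments also had filters of FTAZ:IT-M and FTAZ:PCBM, with 4 plants in each group. The study asked which leaf genes respond to the filtered light. Per the labels' protocols, a box held 16 plants, with a first harvest at 3 weeks and a final harvest at 5 weeks, and the labels do not say from which harvest the sampled leaves came. The labels give no box number, so an effect of the box and an effect of the filter cannot be told apart.

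Plants read light through photoreceptors. Phytochromes respond to the balance of red and far-red light, which shifts in the shade of other leaves and sets off elongation, while cryptochromes and phototropins respond to blue light. The amount of light also sets the demand for photosynthetic proteins, for protection from excess light and, in red lettuce, for anthocyanin pigments. The gene identifiers of these files carry no product names, so genes are given by identifier, and no pathway or leaf marker list was checked. The reference table names only 2 identifiers beyond their locus number.

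Total counts were 47333626 to 48223596 in the filter plants and 47644398 to 48058797 in the glass plants. A level of 3 counts was the lowest taken as detectable, for counting error only. Per 1000000 total counts, without further scaling, it stood at 0.0622 to 0.0634 in the filter plants and 0.0624 to 0.063 in the glass plants. CPM are counts scaled to 1000000 per TMM-scaled library, where TMM is a scaling that makes the bulk of genes comparable between libraries. They are not divided by gene length. Pearson correlations of log2 CPM ran from 0.976 to 0.981 between filter plants, from 0.978 to 0.987 between glass plants and from 0.969 to 0.983 between a filter and a glass plant. In a whole leaf, a change in the share of a cell type and a change of RNA within cells cannot be told apart.

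Many genes differed by a small amount. With edgeR's quasi-likelihood test, all 32 plants in the model and Benjamini-Hochberg adjustment, 937 of 24483 tested genes (3.83%) passed an adjusted p of 0.05 and are referred to as called. Of these, 553 were higher under the filter (2.26% of tested genes) and 384 were lower (1.57%). The median log2 fold change was 0.39 among the risers and -0.43 among the fallers, while the median absolute value over all tested genes was 0.14. Only 81 called genes passed an absolute log2 fold change of 1, 44 of them higher and 37 lower, and 614 stayed below 0.5. The 4 filter plants and the 4 glass plants had CPM ranges that did not overlap in 754 of the 937 called genes, against 2195 of all tested genes (8.97%). The risers took 4.37%, 3.87%, 4.73% and 4.1% of all counts in the filter plants and 3.16%, 3.46%, 3.24% and 3.5% in the glass plants. The fallers took 0.986%, 0.963%, 0.947% and 0.807% in the filter plants and 1.28%, 1.28%, 1.36% and 1.36% in the glass plants.

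**Figure D1:**
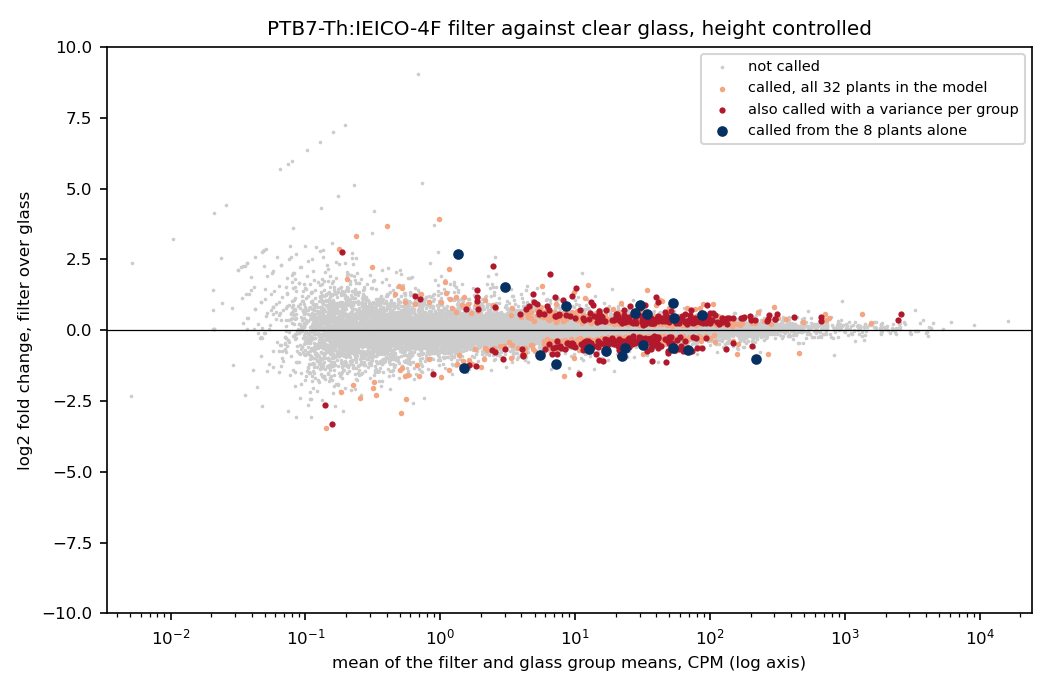
Log2 fold change of each of the 24483 tested genes, filter over glass (vertical axis), against its mean CPM (horizontal, log axis). Of the called genes, 81 lie beyond 1 log2 unit in either direction and 614 lie within 0.5, and the genes called from the 8 plants alone, in dark blue, number 20.

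The number of called genes depended on the model. The main model pools the variation of all 8 groups. The typical relative spread between plants beyond counting error was 20.2% in the filter group, 14.4% in the glass group and 16.1% pooled. The main model thus takes a smaller spread for the filter group than its own plants show, and its adjusted p-values may be too low. The models below differ from the main model in more than the pooling, such as the plants, the genes tested or the tool. The model of the 8 plants also has only 6 residual degrees of freedom to estimate variation, against 24 in the main model. The cause of the difference in counts was not tested. When only the 8 plants entered the model, 20 genes were called (0.086%), 9 higher and 11 lower, although 3460 had an unadjusted p under 0.05, and 19 of the 20 were among the 937. Limma voom with a variance for each group called 381 genes (1.56%), 215 higher and 166 lower, of which 380 were among the 937. A model of the 16 HC plants called 506 (2.12%), with 243 higher and 263 lower. Without filter plant 3 the count was 310, without filter plant 4 it was 609, without glass plant 1 it was 348, and without glass plant 3 it was 240, where 116 were higher and 124 lower. In all 8 fits that each left out a plant, 179 of the 937 kept their call and direction, 91 higher and 88 lower, and 175 of these were also called with a variance for each group.

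The called genes also differed between the PC plants and the HC plants behind the other filters, whose levels entered the choice only through the pooled variance. Among the 553 risers, 520 (94.0%) had a higher mean log2 CPM in the 8 PC plants behind the FTAZ filters than in the 8 HC plants behind the same filters, as did 49.7% of all tested genes. Among the 384 fallers, 319 (83.1%) had a lower mean in those PC plants, as did 50.3% of all tested genes. The median difference, PC minus HC, was 0.39 log2 units over the risers, -0.23 over the fallers and -0.003 over all tested genes. Every PC FTAZ plant stood above every HC FTAZ plant in 211 risers (38.2%) and 0 fallers, against 3.31% of all tested genes, and every PC FTAZ plant stood below every HC FTAZ plant in 81 fallers (21.1%) and 0 risers, against 3.89%. Of the genes called in all 8 fits that left out a plant, 89 of 91 risers (97.8%) were higher and 75 of 88 fallers (85.2%) lower in the PC FTAZ plants. Both filters showed it. Under FTAZ:IT-M the PC mean was the higher one in 88.2% of risers and the lower one in 84.9% of fallers, and under FTAZ:PCBM in 93.7% of risers and 71.9% of fallers. This count was made after the values were seen and is given without a test. Light intensity and anything else that differs between PC and HC cannot be told apart.

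The same pattern was visible plant by plant. For each plant the median over the called genes of log2 CPM minus the mean of all 32 plants was taken. Over the risers this was 0.08, -0.003, 0.15 and 0.12 in the filter plants and -0.33, -0.24, -0.37 and -0.28 in the glass plants, which are the plants that chose the genes. The 8 HC FTAZ plants lay between -0.33 and -0.16, at the side of the glass plants. The 16 PC plants lay between 0.07 and 0.28, and their range overlapped that of the filter plants. Over the fallers it was -0.11, -0.15, -0.21 and -0.24 in the filter plants and 0.24, 0.19, 0.22 and 0.24 in the glass plants. The 8 HC FTAZ plants lay between 0.12 and 0.22, and the 16 PC plants between -0.25 and 0.08.

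**Figure D2:**
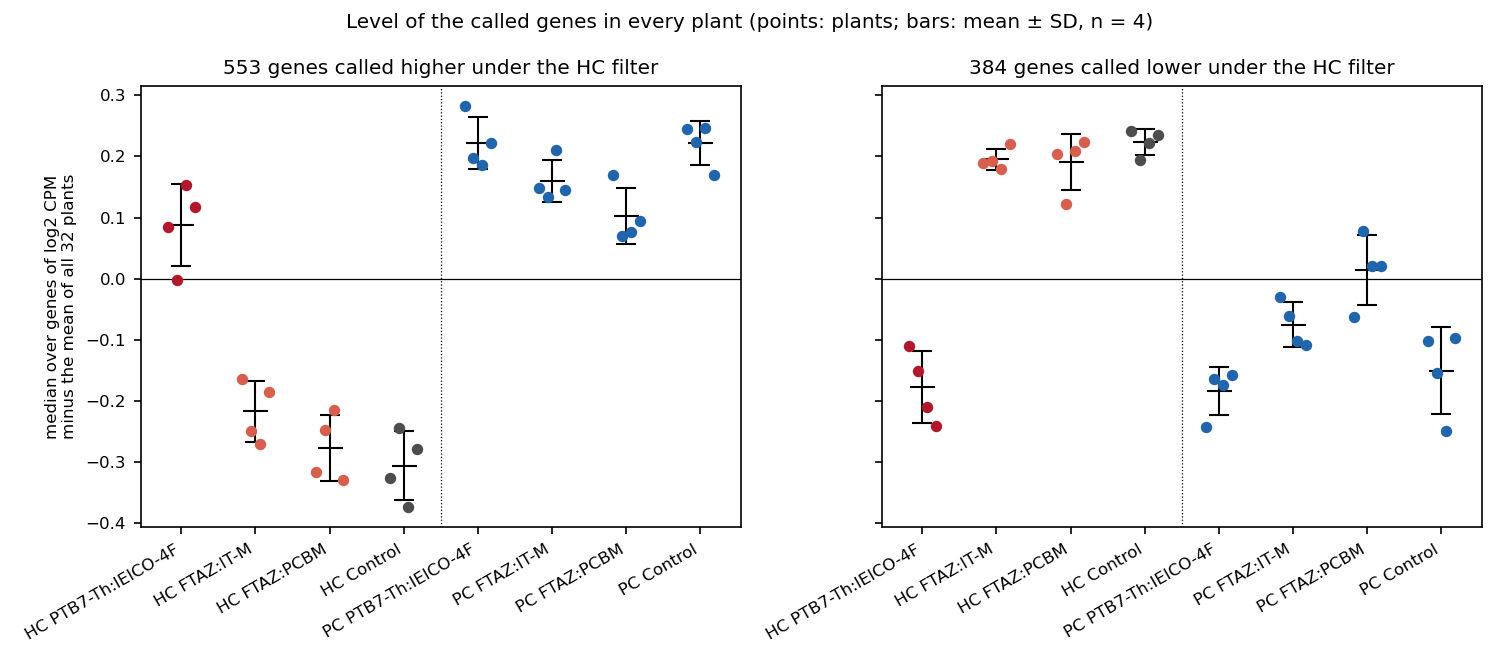
Median level of the called genes in each of the 32 plants, as log2 CPM minus the mean of all plants (vertical axis), for the 553 genes called higher (left) and the 384 called lower (right), by group (bars, mean ± SD, n = 4). For the risers the HC FTAZ plants lie at -0.33 to -0.16 and all PC plants at 0.07 to 0.28, while the HC filter plants lie at -0.003 to 0.15.

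In PC, with other plants, the same filter over glass called 819 of 24483 genes (3.35%). The genes followed here were chosen for their difference in HC. The HC risers had a median log2 fold change of 0.02 in PC, 316 of 553 were above 0 (57.1%, against 50.5% of all tested genes), and 3 were called higher (0.542%, against 0.886% of all tested genes) and 14 lower (2.53%, against 2.46%). The HC fallers had a median of -0.05, 149 of 384 were above 0 (38.8%), and 3 were called higher (0.781%) and 11 lower (2.86%). These shares of calls were close to those over all tested genes. The interaction contrast of the same edgeR quasi-likelihood fit, which tests the effect in HC minus the effect in PC, called 489 genes at an adjusted p under 0.05 (2%), 324 of them above 0 and 165 below. It called 282 when only the 4 groups entered the model, 213 without glass plant 3 of HC, 311 without glass plant 4 and 317 without filter plant 4.

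Single genes were taken by a rule, the 5 largest rises and the 5 largest falls among 725 called genes of at least 1 CPM on average with separate ranges, and then 5 more of the 19 genes called both with all plants and with the 8 plants alone. All but LOC111888373 are protein-coding in the reference table, which does not match that identifier, and none of the 15 overlaps another gene in the files' annotation. Of the 15, limma voom with a variance for each group called 9, the model of the 8 plants 7, and all 8 fits that left out a plant 8. The model of the 8 plants called the last 5 by the rule, and besides these it called 1 rise and 1 fall. With a variance for each group 3 of the 5 rises and 1 of the 5 falls were called. All 8 fits that left out a plant called 2 of the rises and 1 of the falls.

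LOC111884457 showed the largest rise under this rule. Its level was 3.12, 1.42, 2.16 and 2.76 CPM in the filter plants and 0.535, 0.355, 0.405 and 0.163 CPM in the glass plants. Each filter plant was above each glass plant, and the gene had 64 to 151 counts under the filter and 8 to 25 under glass. The log2 fold change was 2.69 (SE 0.60, adjusted p = 0.0117 in edgeR's quasi-likelihood test), and the adjusted p was 0.048 with the 8 plants alone and 0.0358 with a variance for each group. It ranged from 0.000445 to 0.048 over the 16 alternatives that tested it, since the 5 CPM filter left it out.

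LOC111907141 had 5.79, 1.46, 4.77 and 4.26 CPM in the filter plants and 1.03, 1.11, 0.446 and 0.773 CPM in the glass plants. Filter plant 2 was the lowest of its group and stood just above the glass plants. It rose by 2.28 log2 units (SE 0.42), with an adjusted p of 0.00284 in edgeR, 0.0744 with the 8 plants alone and 0.0202 with a variance for each group, and a range of 7e-06 to 0.0744 over the alternatives. In PC its mean was 2.76 ± 0.69 CPM under the filter and 3.65 ± 1.05 CPM under glass (SD, n = 4 each). The interaction was 2.68 (SE 0.56, adjusted p = 0.0109 in edgeR).

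LOC111917671 had 15.7, 6.32, 13.5 and 6.38 CPM in the filter plants and 4.32, 2.51, 1.72 and 2.09 CPM in the glass plants. The filter plants fell into a high pair, plants 1 and 3, and a lower pair, both above the glass plants. Its log2 fold change was 1.98 (SE 0.42, adjusted p = 0.00869 in edgeR, 0.0744 with the 8 plants alone, 0.0424 with a variance for each group). The other 2 large rises did not pass either of the stricter models. LOC111888373 had 1.06 to 2.75 CPM in the filter plants and 0.122 to 0.642 CPM in the glass plants, with a log2 fold change of 2.15 (adjusted p = 0.0215 in edgeR, 0.0887 and 0.198 in the stricter models). LOC111912993 had 1.06 to 2.70 CPM in the filter plants and 0.344 to 0.752 CPM in the glass plants, with a log2 fold change of 1.70 (adjusted p = 0.0273 in edgeR, 0.0887 and 0.164).

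The largest fall under the rule was that of LOC111902652, which also had the highest adjusted p of the 15 in the main model. It had 7.59, 3.78, 1.53 and 3.28 CPM in the filter plants and 10.1, 15.7, 15.3 and 8.52 CPM in the glass plants. The ranges came within 1 CPM of each other, at filter plant 1 and glass plant 4. The log2 fold change was -1.61 (SE 0.47, adjusted p = 0.0492 in edgeR, 0.119 with the 8 plants alone and 0.0895 with a variance for each group), and 2 of the 8 fits that left out a plant kept the call.

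LOC111897810 varied little within the groups. It had 0.72, 0.80, 0.83 and 1.05 CPM in the filter plants and 2.48, 2.11, 1.99 and 1.97 CPM in the glass plants. The groups stood apart, at 35 to 46 counts under the filter and 97 to 116 under glass. It fell by 1.33 log2 units (SE 0.35), at an adjusted p of 0.0318 in edgeR and 0.048 with the 8 plants alone, but of 0.0695 with a variance for each group. Only 2 of the 8 fits that left out a plant kept the call.

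LOC111898994, of 5583 bp, had 1.39, 0.840, 0.933 and 1.14 CPM in the filter plants and 2.55, 3.26, 2.71 and 1.91 CPM in the glass plants. It kept its call in all 8 fits that left out a plant, with a log2 fold change of -1.28 (SE 0.26, adjusted p = 0.00666 in edgeR, 0.0744 with the 8 plants alone, 0.0304 with a variance for each group). LOC111890527 had 0.726 to 1.57 CPM in the filter plants and 1.93 to 3.57 CPM in the glass plants, and LOC111886989 had 0.456 to 1.05 CPM in the filter plants and 1.22 to 2.27 CPM in the glass plants. Their log2 fold changes were -1.31 and -1.18, with adjusted p-values of 0.0277 and 0.0399 in edgeR that did not pass in either stricter model.

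The 5 further genes called with all plants and with the 8 plants alone were all called too with a variance for each group and in all 8 fits that left out a plant. LOC111915585 is a gene of 1 exon and 2110 bp at NW_019677000.1, 335193 to 337302 on the plus strand (Lsat_Salinas_v7). It had 72.2, 52.7, 76.5 and 77.6 CPM in the filter plants and 37.0, 38.9, 32.1 and 35.1 CPM in the glass plants. Levels under the filter were higher in every plant, with plant 2 the lowest of the 4. It rose by 0.96 log2 units (SE 0.10), at an adjusted p of 8.64e-06 in edgeR, 0.048 with the 8 plants alone and 4.44e-05 with a variance for each group.

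By the mean level of LOC111915585, the HC filter group stood beside the PC groups. HC FTAZ:IT-M averaged 37.9 ± 3.9 CPM and HC FTAZ:PCBM 38.9 ± 3.9 CPM. The PC groups averaged 81.5 ± 10.02 CPM under PTB7-Th:IEICO-4F, 66.8 ± 3.9 CPM under FTAZ:IT-M, 67.5 ± 5.0 CPM under FTAZ:PCBM and 77.0 ± 4.9 CPM under glass (SD, n = 4 each). The HC filter mean of 69.8 ± 11.6 CPM lay within the range of the 4 PC means and the HC glass mean of 35.8 ± 2.9 CPM did not. Filter plant 2, at 52.7 CPM, lay below every PC plant, the lowest of which had 62.8 CPM. The interaction was 0.88 (SE 0.14, adjusted p = 0.00149 in edgeR).

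LOC111882643, of 13 exons at NW_019679917.1, 257105 to 264333 on the minus strand, had 124, 166, 152 and 137 CPM in the filter plants and 288, 275, 297 and 321 CPM in the glass plants. Its level under the filter was about 0.491 of that under glass, with a log2 fold change of -1.03 (SE 0.17, adjusted p = 0.00124 in edgeR, 0.0301 with the 8 plants alone and 0.00445 with a variance for each group). It averaged 354 ± 92 CPM in HC FTAZ:IT-M and 403 ± 26 CPM in HC FTAZ:PCBM, and 84.2 to 176 CPM over the 4 PC groups. The interaction was -0.92 (SE 0.23, adjusted p = 0.0341 in edgeR), since the filter and glass means in PC were 84.2 ± 12.3 and 90.8 ± 16.7 CPM.

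LOC111914980, of 12 exons at NW_019676799.1, 272190 to 275478 on the minus strand, fell in the same way. It had 56.3, 53.4, 52.4 and 47.7 CPM in the filter plants and 80.1, 89.0, 81.3 and 88.9 CPM in the glass plants, and both groups were narrow. The log2 fold change was -0.69 (SE 0.11, adjusted p = 0.00124 in edgeR and 0.0361 with the 8 plants alone), and the interaction was -0.77 (adjusted p = 0.00647). Its mean was 89.6 and 104 CPM in the HC FTAZ groups and 41.0 to 64.2 CPM in the PC groups.

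LOC111890606, of 10 exons at NW_019672074.1, 1314891 to 1319536 on the minus strand, showed the smallest of these changes. It had 26.7, 27.02, 24.8 and 25.3 CPM in the filter plants and 34.7, 37.4, 37.8 and 38.8 CPM in the glass plants. The gap between the groups was wider than the spread within either, and the log2 fold change was -0.52 (SE 0.08, adjusted p = 0.00124 in edgeR, 0.048 with the 8 plants alone). Its interaction was -0.58 (adjusted p = 0.00891).

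LOC111889185, of 4 exons at NW_019681325.1, 153975 to 156409 on the minus strand, had 4.86, 3.56, 5.52 and 3.83 CPM in the filter plants and 1.69, 1.71, 1.22 and 1.57 CPM in the glass plants. Every filter plant stood above every glass plant. It rose by 1.52 log2 units (SE 0.30, adjusted p = 0.00546 in edgeR, 0.048 with the 8 plants alone and 0.0214 with a variance for each group). Its interaction of 1.30 did not pass, with an adjusted p of 0.0984.

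**Figure D3:**
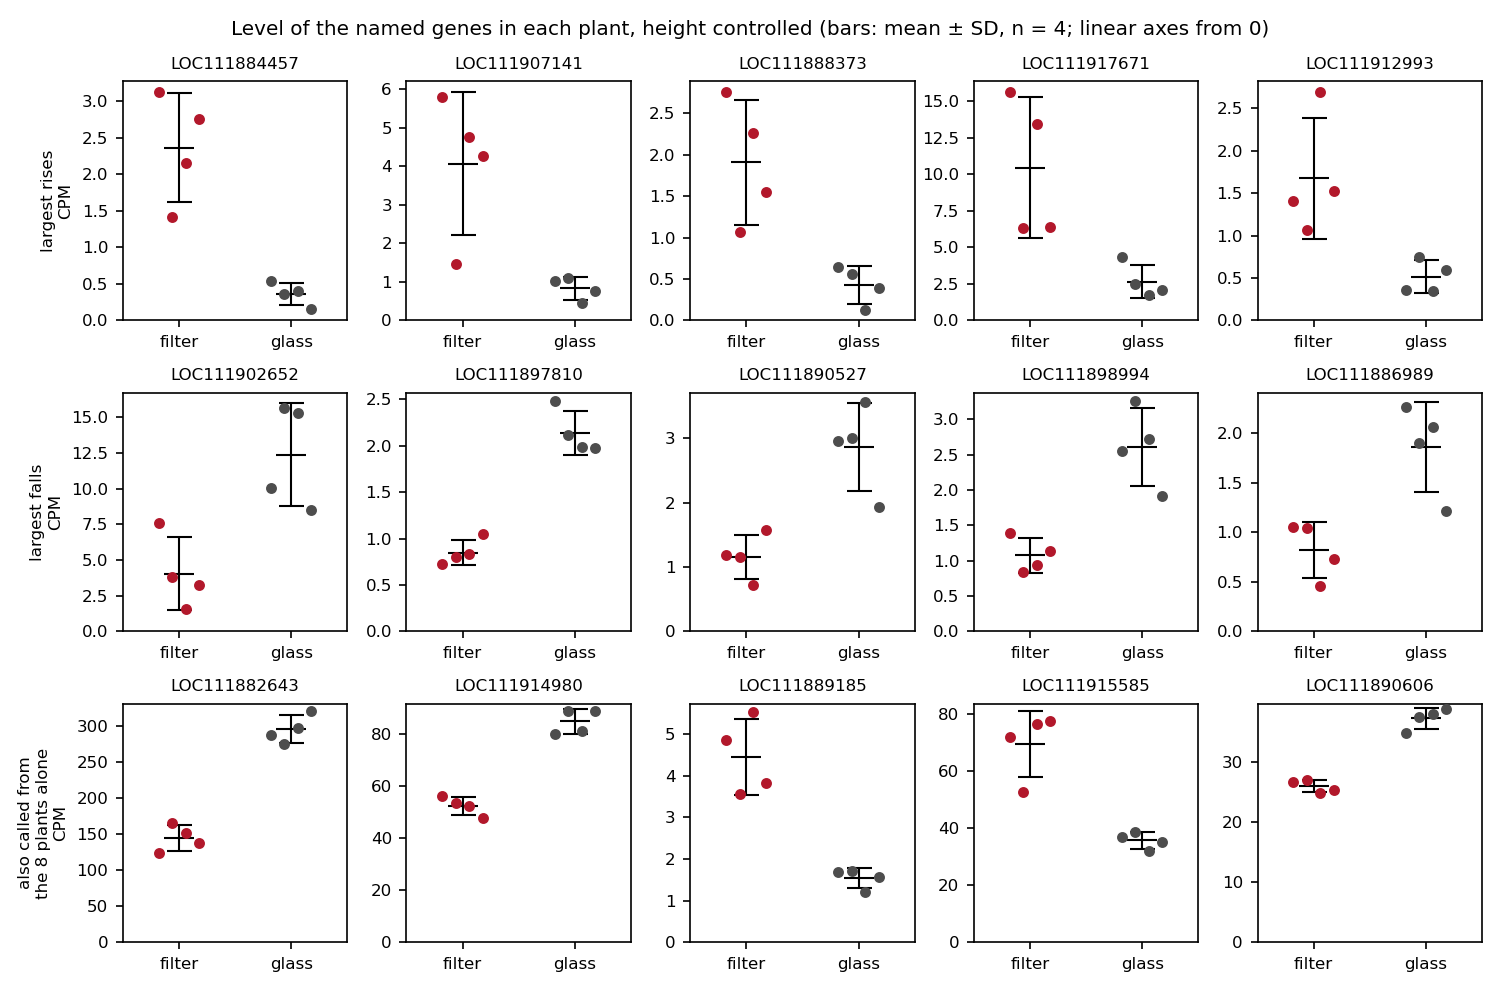
CPM of the 15 named genes in each plant (points) with mean ± SD (bars, n = 4 each), filter left and glass right, on linear axes from 0. The groups do not overlap in any panel, by the rule for the upper 2 rows, and in the bottom row LOC111915585 lies at 52.7 to 77.6 CPM under the filter and 32.1 to 38.9 CPM under glass.

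Set against the FTAZ plants, 12 of the 15 named genes had a PC minus HC difference on the side of their own change, including all 5 of the last group. The exceptions were the rises LOC111884457 and LOC111917671 and the fall LOC111898994. LOC111884457 averaged 0.488 ± 0.300 CPM in the PC FTAZ plants and 0.579 ± 0.413 CPM in the HC FTAZ plants (SD, n = 8 each). LOC111917671 averaged 4.67 ± 2.54 CPM in the PC and 7.53 ± 5.82 CPM in the HC FTAZ plants. By filter, its HC mean was 11.2 ± 6.4 CPM under FTAZ:IT-M and 3.87 ± 1.27 CPM under FTAZ:PCBM. Under PTB7-Th:IEICO-4F in HC the mean was 10.5 ± 4.8 CPM, so the level under HC FTAZ:IT-M was alike. LOC111898994 averaged 2.19 ± 0.90 CPM in the PC and 1.54 ± 0.33 CPM in the HC FTAZ plants.

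The 3 called genes with the most reads all rose, a choice made after their values were seen. LOC111890922 had 2842, 2871, 3285 and 3459 CPM in the filter plants and 1963, 2237, 2120 and 2115 CPM in the glass plants. Its level was separate between the groups, with a log2 fold change of 0.56 (SE 0.12, adjusted p = 0.00806 in edgeR, 0.0744 with the 8 plants alone and 0.0101 with a variance for each group). LOC111881126 averaged 2758 ± 202 CPM under the filter and 2153 ± 115 CPM under glass, a log2 fold change of 0.36 (adjusted p = 0.0163 in edgeR, 0.146 with the 8 plants alone). LOC111914201 averaged 1694 ± 143 CPM under the filter and 1414 ± 90 CPM under glass, with overlapping ranges (log2 fold change 0.26, adjusted p = 0.042 in edgeR, 0.268 with the 8 plants alone).

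The 2 identifiers with a name in the reference table were not called. LOC111883376, the cytosolic glutamine synthetase GS(1), an enzyme of ammonium assimilation, had 348, 347, 409 and 358 CPM in the filter plants and 288, 282, 294 and 360 CPM in the glass plants. Glass plant 4 stood with the filter plants, and the log2 fold change of 0.26 (SE 0.08) had an adjusted p of 0.0788 in edgeR. It was called in 2 of 17 alternatives, at 0.0424 in DESeq2's Wald test and 0.0283 in edgeR without glass plant 4, and ranged up to 0.29. LOC111889525, a triosephosphate isomerase of glycolysis and carbon fixation, averaged 394 ± 47 CPM under the filter and 363 ± 44 CPM under glass, with a log2 fold change of 0.12 (SE 0.10, adjusted p = 0.575 in edgeR). It was called in 0 of 17 alternatives, at 0.355 to 0.818.

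Risers and fallers differed in gene structure. The median exonic length was 1423 bp for the risers, 2285 bp for the fallers and 1597 bp for all tested genes, and the median number of exons, after merging overlapping ones, was 3, 8 and 4. Of 3243 tested genes with 1 exon, 132 were called higher (4.07%) and 13 lower (0.401%). Of 4464 genes with 10 or more exons, 35 were called higher (0.784%) and 167 lower (3.74%). Genes of 2 to 4 exons, with 245 higher and 94 lower, and of 5 to 9 exons, with 141 higher and 110 lower, lay between. The division by exons was made after the values were seen.

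The direction of this difference was kept when the calls were made in other ways. These fits share all or most of their plants with the main fit, so they are not independent of it. With a variance for each group, 59 single-exon genes were higher and 3 lower, against 11 higher and 77 lower among genes of 10 or more exons. With an offset fitted on gene length the counts were 131 and 19 for single-exon genes and 67 and 170 for genes of 10 or more exons. That offset left the genes of over 2228 bp at 165 higher and 188 lower, where without it the counts were 58 and 202. Across the 8 fits that left out a plant, single-exon genes had 36 to 140 calls higher and 1 to 25 lower, and genes of 10 or more exons had 4 to 53 higher and 55 to 165 lower.

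Over all tested genes the difference did not pass an exact permutation test over plants. For each plant the median log2 deviation of genes with 10 or more exons was subtracted from that of single-exon genes. This was -0.06, 0.10, 0.03 and 0.16 in the filter plants and -0.09, -0.04, -0.04 and -0.04 in the glass plants. Filter plants 2, 3 and 4 stood above all glass plants, and filter plant 1 lay within their range. The means, 0.0601 ± 0.0935 under the filter and -0.0510 ± 0.0237 under glass (SD, n = 4 each), differed by 0.111 with an exact permutation p of 0.114 (two-sided; 0.171 adjusted over 3 measures per plant). The slope of log2 CPM on gene length was -0.0133 ± 0.0509 per doubling under the filter and 0.0074 ± 0.0417 under glass, with an exact permutation p of 0.571. With deviations from the mean of all plants of the series, the exon measure was not highest in the HC filter group. It averaged 0.0776 ± 0.0421 in PC FTAZ:IT-M (plants at 0.0384 to 0.137) and 0.0629 ± 0.0907 in the HC filter group. Means were 0.0242 in PC glass, 0.0205 in PC PTB7-Th:IEICO-4F and -0.0208 in PC FTAZ:PCBM. In HC they were -0.0459 in glass, -0.031 in FTAZ:IT-M and -0.0119 in FTAZ:PCBM. What share of the calls goes with the difference in gene structure was not tested.

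**Figure D4:**
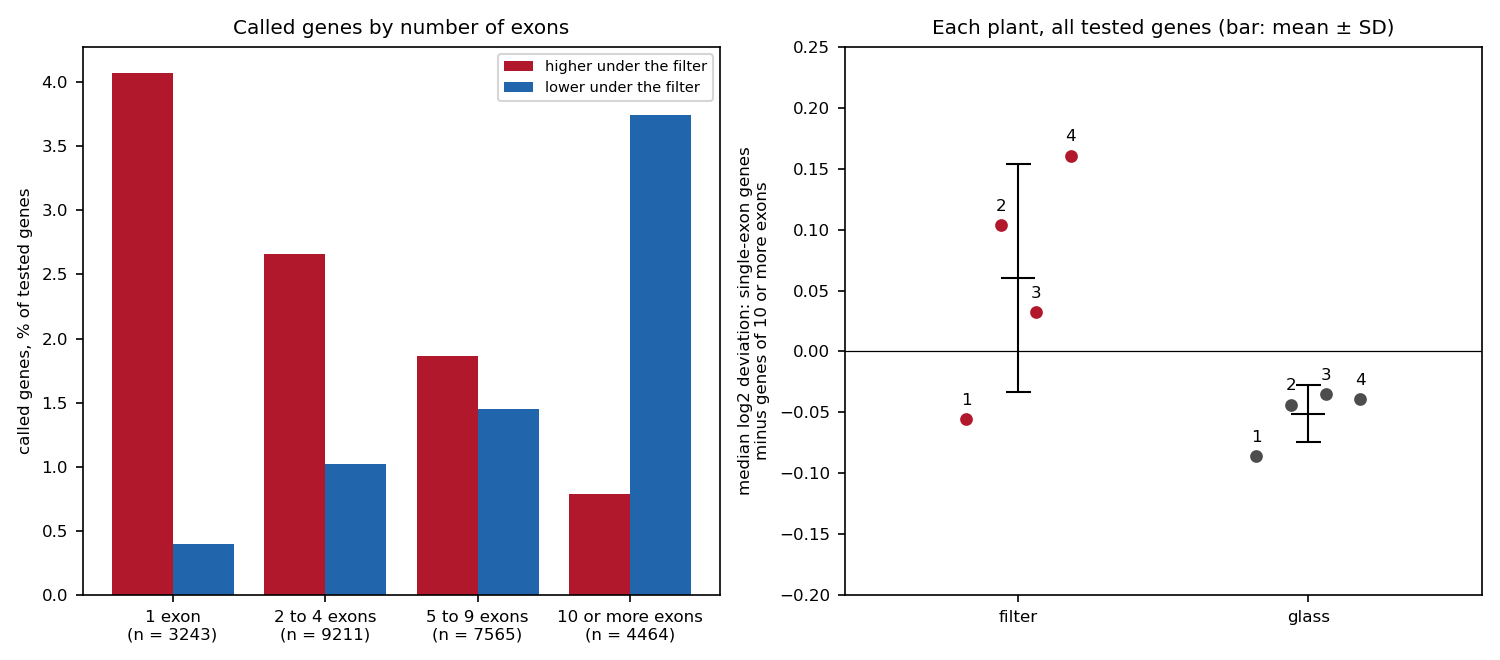
Left, percent of tested genes called higher (red) and lower (blue) under the filter by number of exons. Right, the median log2 deviation of single-exon genes minus that of genes with 10 or more exons in each plant (numbered points; bars, mean ± SD, n = 4). Single-exon genes were called higher in 4.07% and lower in 0.401%, genes of 10 or more exons in 0.784% and 3.74%, and filter plant 1 lies among the glass plants.

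By type, 544 protein-coding genes were higher and 366 lower of 21742 tested (4.19%), against 4 higher and 12 lower of 1698 long non-coding RNAs (0.942%). Of 122 small nucleolar RNAs 0 were called in edgeR, with 4 at an unadjusted p under 0.05, and DESeq2's Wald test called 0. These types also differed in level, with a median CPM of 14.7 for protein-coding genes, 2.59 for long non-coding RNAs and 0.396 for small nucleolar RNAs. Calls were more frequent among genes with more reads. Of the 6121 genes below a mean of 2.21 CPM, 39 were higher and 33 lower (1.18%), and of the 6121 above 35.2 CPM, 249 were higher and 111 lower (5.88%). Strand was not used in the counting as far as the file headers show, so reads of overlapping genes cannot be told apart. Such genes made up 35 of the 937 called (3.74%) and 5.69% of those tested.

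Called genes had a called neighbour about as often as tested genes did. Of the called genes with a tested neighbour, 68 had a called one (7.38%), against 6.96% of all tested genes with a tested neighbour. Among 22412 pairs of tested genes that neighbour each other on a scaffold, 27 pairs held called genes that moved alike and 9 held called genes that moved oppositely. There were 4 runs of 3 neighbours. LOC111881935, LOC111881937 and LOC111881938, each of 1 exon and 669 to 723 bp within NW_019679663.1, 586398 to 746439, all rose. LOC111881938 had 160, 74.5, 178 and 134 CPM in the filter plants and 86.6, 83.7, 50.9 and 68.1 CPM in the glass plants. Filter plant 2 was the lowest of its group in all 3, and for LOC111881935 and LOC111881938 it lay among the glass plants. The log2 fold changes were 0.89, 1.00 and 0.92, with adjusted p-values of 0.0337, 0.0122 and 0.0400 in edgeR.

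The other runs moved by less or at low levels. LOC111916389, LOC111916390 and LOC111916391, each of 4 exons and 1149 to 1178 bp, rose by 0.60, 0.63 and 0.70 on the log2 scale. LOC111881623, LOC111881684 and LOC111881634, each of 2 exons and 1218 to 1300 bp, rose by 1.22, 1.04 and 0.60. LOC111900405, LOC111900444 and LOC111900406 were lower. LOC111900444 was under the 3-count level in all 4 filter plants and at 0.251 to 0.325 CPM in the glass plants, and LOC111900406 fell only slightly, with 96.5 to 105 CPM in the filter plants and 111 to 116 CPM in the glass plants. Reads that map to several places go uncounted by the default of the counter, so the levels of neighbours of like length and structure, which may be copies of each other, are uncertain.

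The spread between plants was measured as larger behind the filter than behind glass, but the difference did not pass after adjustment. The biological coefficient of variation, the typical relative spread of a gene between plants beyond counting error, was 20.2% in the filter group and 14.4% in the glass group, against 13.45% to 18.94% in the other 6 groups and 16.1% pooled. The filter group's value was the highest of the 8. The median SD of log2 CPM over genes was 0.204 in the filter plants and 0.156 in the glass plants, and 64.5% of genes had the larger SD under the filter. The root mean square distance of a plant from the other 3 of its group was 0.457, 0.515, 0.501 and 0.485 log2 units in the filter plants and 0.443, 0.362, 0.383 and 0.456 in the glass plants. Each filter plant was farther from its group than each glass plant, filter plant 1 by the least. In an exact permutation test (two-sided) the difference of 0.0785 gave p = 0.0286, the least possible with 4 plants a group, and p = 0.0857 after adjustment over 3 measures. The difference was 0.0285 without glass plant 2 (exact permutation p = 0.457), 0.0392 without glass plant 3 (p = 0.343 in the same exact test) and 0.125 without filter plant 1 (exact p = 0.0571). A group that lost a plant has each distance taken from fewer other plants, which by itself makes its distances larger. The differences with a plant left out therefore also reflect the group sizes. The distances within a group share plants and are not independent.

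**Figure D5:**
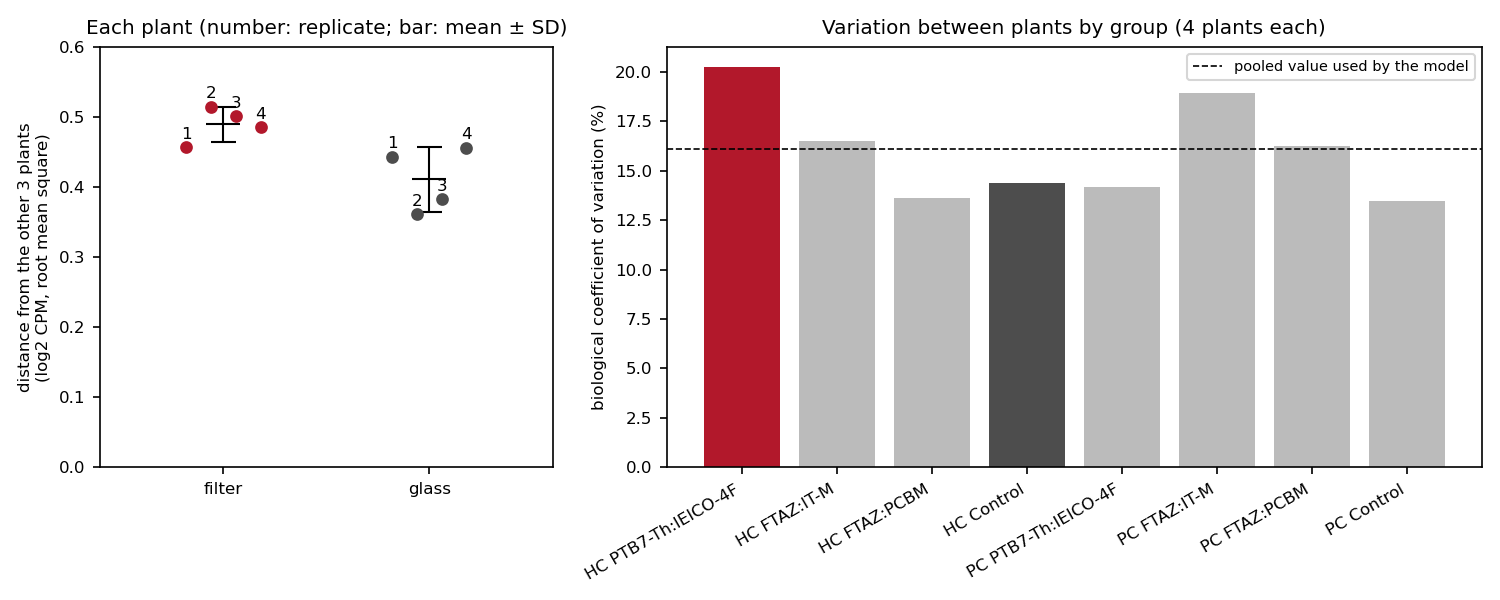
Left, distance of each plant from the other 3 of its group (root mean square of log2 CPM differences; numbers, replicates; bars, mean ± SD, n = 4). Right, biological coefficient of variation of each of the 8 groups, with the pooled value of 16.1% as a dashed line. The HC filter group has the highest bar, 20.2%, and HC glass stands at 14.4%.

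The main axis of variation among the 8 plants held 27.3% of the variance. The filter plants scored 25.97, -7.5, 63.0 and -1.4 on it and the glass plants -39.4, -20.3, -30.8 and 10.5. Glass plant 4 lay among the filter plants, and filter plant 3 at the far end. The second axis, with 17.8%, set filter plant 2 apart at 57.3, where the other 7 plants lay between -27.6 and 14.9. The medians of the called genes, which these plants chose, lay to 1 side in all filter plants. The median difference from the glass mean over the risers was 0.37, 0.29, 0.45 and 0.42 in filter plants 1 to 4, and over the fallers -0.37, -0.39, -0.43 and -0.53.

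The genes that varied most between filter plants were counted by their SD. Of 15971 genes with a mean of at least 5 CPM, 67 had an SD above 1 log2 unit in the filter plants and 29 in the glass plants, with 19 in both. Among the 48 above 1 in the filter plants only, plant 2 was the farthest from the group mean in 17 and lay above it in 14 of these. Plant 3 was the farthest in 14 and lay above it in 1 of these. LOC111877601, the 1 of the 48 that was called, had 12.2, 2.74, 13.2 and 5.54 CPM in the filter plants and 2.28 to 4.05 CPM in the glass plants (adjusted p = 0.0475 in edgeR). Over all tested genes 3.83% were called, and nothing is read from the count, since the 48 were chosen for their spread between filter plants. LOC111902312 had 3.68, 39.1, 6.34 and 9.30 CPM in the filter plants and 4.35, 5.79, 9.54 and 6.08 CPM in the glass plants, so filter plant 2 stood alone. LOC111899294 had 12.2, 46.0, 10.8 and 62.1 CPM in the filter plants and 48.4, 41.8, 59.2 and 43.2 CPM in the glass plants, where filter plants 1 and 3 were low and the others at the level of glass. LOC111908061 followed the same division, with 244, 1006, 190 and 931 CPM in the filter plants and 1656, 1006, 1051 and 601 CPM in the glass plants. These last 3 genes were chosen after their values were seen, and were not called (adjusted p of 0.221, 0.548 and 0.305 in edgeR). Tested transfer and ribosomal RNAs of the plastid summed to 28.7 to 107 CPM in the filter plants and 34.8 to 52.5 CPM in the glass plants, and their part in the spread was not tested.

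A small set of genes was near absent in some plants and well above that in others. In the 8 plants, 12 genes had 3 counts or fewer in at least 1 plant and 5 CPM or more in another, and 52 did so over all 32 plants. Of the 12, LOC111897289 and LOC111886429 had most of the 32 plants, 27 and 25, between these limits. LOC111886942, a long non-coding RNA, had 90.1, 0.04, 110 and 0.05 CPM in the filter plants and 0.09, 111, 0.16 and 99.9 CPM in the glass plants. It was high in plants 1 and 3 behind the filter and in plants 2 and 4 behind glass. Over all 32 plants, 9 had 3 counts or fewer, 19 had 5 CPM or more and 4 lay between. LOC111915522, also a long non-coding RNA, had 10.7, 0, 0 and 8.02 CPM in the filter plants and 0.02, 10.9, 11.1 and 10.96 CPM in the glass plants, and over all 32 plants 11 had 3 counts or fewer, 20 had 5 CPM or more and 1 lay between. LOC111912663, protein-coding, had 28.5, 0, 0.04 and 31.4 CPM in the filter plants and 0.06, 22.6, 19.95 and 21.2 CPM in the glass plants. What separates the high plants from the low plants of such a gene was not tested.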

How the data were processed

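Leaf polyA RNA of 32 plants was sequenced, and per the labels' protocols each of 3 lanes carried all libraries. For every gene the authors deposited a raw read count, made with featureCounts 2.0.1 on exons of the RefSeq annotation of Lsat_Salinas_v7, per the file headers, which show no option for strand, multi-mapping reads or read pairs. FastQC, HISAT2 and DESeq2 are also named in the submitters' processing notes, without versions. Groups and replicate numbers came from the sample titles. The labels give separate plants per group, and no label ties plants of different groups to each other.

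The files list 43717 identifiers, of which 31045 had a read and 24483 passed filterByExpr by group (minimum count 10, minimum total 15). Library totals in the series ran from 47289413 to 48764530. After TMM scaling, counts went into edgeR's quasi-likelihood test (edgeR 4.0.16, limma 3.58.1, R 4.3.3), with 1 mean for each of the 8 groups, and p-values were adjusted (Benjamini-Hochberg) over all tested genes. Alternatives were DESeq2 1.42.0 (size factors, Wald test), no filter or 5 CPM, models of fewer groups, limma voom with a variance for each group, a gene length offset (lowess, span 0.5), the replicate number as a block, a log2 fold change of at least 1, and each plant left out. Log2 CPM used a prior count of 2. Exact permutation tests used scipy 1.17.1. The steps were tested on simulated data. Of 42806 locus identifiers, 37822 matched a RefSeq table of Lsat_Salinas_v11, used for types and names only.

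Named genes are the 5 largest rises and falls among called genes with a mean of at least 1 CPM and separate ranges, then 5 called also with the 8 plants alone, by that p. The comparison, lists and rules were chosen with earlier results of these data known. Gene lists by function were not counted, since identifiers carry no product names, and no promoter motif was searched.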

Additional observations from a re-analysis of the deposited data

Results flagged for a closer look

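The effect of PTB7-Th:IEICO-4F over glass in HC minus that in PC was called in the edgeR interaction contrast for 489 genes and for 5 of the 15 named genes. These were LOC111907141 (2.68 log2 units), LOC111915585 (0.88), LOC111882643 (-0.92), LOC111914980 (-0.77) and LOC111890606 (-0.58). The 15 were chosen for their difference in HC, which is part of this contrast. Nothing is read from the 5 of 15, against 2% of all tested genes. For all 5 the log2 fold change in PC had an adjusted p above the threshold. The labels give no box number, so an effect of the box and an effect of the experiment cannot be told apart in this contrast.

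Glass plant 4 stood apart from the other glass plants in LOC111883376, the cytosolic glutamine synthetase, at 360 CPM where the others had 282 to 294. The gap to its nearest neighbour was 0.852 of the whole range of the group, above Dixon's 95% critical value for 4 samples. This was 1 of 50 such checks, of which 2.5 would pass by chance.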

How the results depend on the processing

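The count of called genes in HC was 937 and stayed within 1.5 times with DESeq2's size factors (945), no filter (674), a 5 CPM filter (1051) and the gene length offset (1071). It was 1448 with DESeq2's Wald test, 506 in the model of the 16 HC plants, 381 with a variance for each group, 81 with an absolute log2 fold change of at least 1 and 20 in the model of the 8 plants, and 240 to 1125 when each plant was left out. The interaction count of 489 was 913 with the Wald test, 282 in the model of the 4 groups, 90 with a log2 fold change of at least 1 and 213 to 534 when each plant was left out. It was 483, 380, 566, 594 and 519 with size factors, no filter, the 5 CPM filter, the length offset and a variance for each group. The difference in plant distance of 0.0785 was 0.0684 over genes of 5 CPM or more and 0.0285 to 0.125 when each plant was left out, with exact permutation p of 0.457 without glass plant 2, 0.343 without glass plant 3, 0.114 without filter plant 2 and, for the others, 0.0571, the least possible with 4 against 3 plants. The exon difference of 0.111 was 0.129 over genes of 5 CPM or more, 0.0957 within 4 classes of gene length, both chosen after seeing the data, and 0.0770 to 0.149 when each plant was left out. For the 15 named genes and the 3 with the most reads, 231 of the results under alternatives kept their direction and call, 66 lost the call and 0 reversed. For plant distance, leaving out a plant also lowers the number of plants from which distances in its group are taken. The causes of these changes were not tested.

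With the replicate number as a block the counts were 881 and 441 for the interaction. The numbers pair no plants: same-numbered filter and glass plants deviated from their group means with correlations across genes of -0.008, -0.144, -0.109 and -0.141, and 0 of 8 plants correlated best with its own number.

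Depth limits genes near 3 counts, where ratios are imprecise. For other genes the spread between 4 plants adds to counting error, and their shares were not measured by level.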
